A study of Rattus norvegicus with 17 samples.

Results

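Axon guidance ligands and receptors were followed on gene expression arrays of rat spinal cord neurons. The members were the probe sets whose single gene symbol belongs to the semaphorins 3 to 7, plexins, neuropilins, ephrins, Eph receptors, Slits, Robos, netrins, the Unc5 family or Dcc. The rule found 58 genes of the 14217 genes named on the array, with 97 of its 31099 probe sets. There were 27 ligand genes and 29 receptor genes. The other 2 genes were matched by name only: Unc5cl encodes an intracellular relative of the Unc5 receptors, and Unc50 a membrane trafficking protein unrelated to guidance. Each of the 17 arrays held RNA of 1000 retrogradely labelled neurons, laser captured from unfixed cord cryosections of 10 µm. Regenerating neurons (n = 7) and non-regenerating neurons (n = 7) were both axotomised and came from the same 7 rats, which were 5 animals with the name prefix MM (MM11, MM13, MM14, MM16 and MM17) and 2 with the prefix MOON (MOON265 and MOON266). Traced neurons that were not axotomised (n = 3) came from the rats MM15, MM18 and MM19, of which MM15 is labelled a high yield replicate. Strain, age, time after axotomy and the tissue the axons grew into are not given in the sources used here.

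Axon guidance works through families of cues and matching receptors that turn a growth cone or make it collapse. Secreted class 3 semaphorins bind neuropilins, which signal through class A plexins, whereas membrane semaphorins mostly bind plexins directly. Ephrin-A and ephrin-B ligands, held in the membrane of one cell, act on EphA and EphB receptor kinases of another, and the ligand can signal back. Slits repel axons through Robo receptors, and netrins attract through Dcc and repel through Unc5 receptors. In the adult cord several of these cues are known from glia, scar tissue and myelin as barriers to axon growth.

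RefSeq promoter windows (GRCr8, 250 bases before to 50 after the annotated start) were matched by gene number for 44 of the 58 genes, with 45 windows in all, since Robo1 has more than 1. Windows are printed for the members with the smallest p in each direction between regenerating and traced neurons, Sema6a and Nrp1 on the higher side and Epha6 and Epha5 on the lower side, to show what sites for factors known from axotomised neurons these letters hold. They are Sema6a at chr18:42358491-42358790 (minus strand), Nrp1 at chr19:73256307-73256606 (plus), Epha6 at chr11:53226534-53226833 (plus) and Epha5 at chr14:24007872-24008171 (plus). Capitals mark matches to any motif searched.
Sema6a: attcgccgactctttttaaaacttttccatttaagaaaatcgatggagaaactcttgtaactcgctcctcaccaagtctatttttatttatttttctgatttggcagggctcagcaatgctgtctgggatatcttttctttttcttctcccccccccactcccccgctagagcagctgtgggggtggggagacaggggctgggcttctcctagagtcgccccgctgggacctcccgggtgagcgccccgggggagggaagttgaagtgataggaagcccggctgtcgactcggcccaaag
Nrp1: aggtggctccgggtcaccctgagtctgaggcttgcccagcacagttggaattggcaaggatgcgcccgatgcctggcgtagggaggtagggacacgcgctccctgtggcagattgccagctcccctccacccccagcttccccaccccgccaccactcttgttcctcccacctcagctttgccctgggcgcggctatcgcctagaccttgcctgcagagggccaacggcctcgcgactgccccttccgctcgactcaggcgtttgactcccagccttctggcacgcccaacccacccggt
Epha6: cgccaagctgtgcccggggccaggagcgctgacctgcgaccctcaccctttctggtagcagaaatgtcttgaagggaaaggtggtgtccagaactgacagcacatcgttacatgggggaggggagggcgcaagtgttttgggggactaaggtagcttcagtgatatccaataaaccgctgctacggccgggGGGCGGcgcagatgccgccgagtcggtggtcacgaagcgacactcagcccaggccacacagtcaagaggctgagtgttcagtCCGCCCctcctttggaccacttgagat
Epha5: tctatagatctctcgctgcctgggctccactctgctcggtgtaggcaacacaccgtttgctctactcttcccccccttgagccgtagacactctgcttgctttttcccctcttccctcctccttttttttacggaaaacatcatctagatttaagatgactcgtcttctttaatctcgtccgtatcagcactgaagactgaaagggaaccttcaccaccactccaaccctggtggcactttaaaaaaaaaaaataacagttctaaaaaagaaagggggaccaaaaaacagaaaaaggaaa
The motifs, searched on both strands, were the AP-1 site TGANTCA, bound by Jun and Atf3 dimers, the CRE TGACGTCA, and the GC box GGGCGG. No motif contains another. Of these 4 windows, that of Epha6 had 2 GC boxes and the others had no match. Among the 45 member windows, 1 held an AP-1 site (Epha10, 2.22%, against 7.33% of all 33469 windows of the same length) and 1 held a CRE (Epha2, 2.22% against 1.83%). A GC box lay in 26 of the 45 (57.8%, against 33.1% of all windows), beside a median GC content of 61.0% in the member windows and 51.7% in all windows.

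The arrays were not alike as a whole, and this touches several members. Median signals were 32.7 to 38.9 on the 4 arrays of MOON animals and 45.1 to 76.7 on the 13 of MM animals, and no traced animal was a MOON animal. The arrays of non-regenerating MM17 and traced MM15 stood apart, with median correlations to the other arrays of 0.847 and 0.821, so the main values against traced neurons are also given without them. For regenerating neurons this leaves out traced MM15 alone, and for non-regenerating neurons both arrays. In either case the only traced samples left are MM18 and MM19. None of the 8 neuron markers averaged below 16, the offset added to signals before log2, in every group. Their summed signals were 10862 to 18596 in regenerating, 9903 to 29894 in non-regenerating and 13155 to 31693 in traced samples. Without the 2 arrays that stood apart the highest sums were 19767 in non-regenerating and 14120 in traced samples. What this means for the members was not tested. Summed signals of 12 microglia and macrophage markers were 3329 to 6492 in regenerating and 3367 to 5910 in non-regenerating samples, against 1997 to 2241 in traced samples, and only Itgam averaged below 16 in every group. Summed signals of 8 astrocyte markers were 14054 to 21825 and 13102 to 22493, against 12174 to 12720. All sums of the microglia and astrocyte lists were thus higher in axotomised than in traced samples, and their part in the results against traced neurons was not tested. Summed motor neuron markers were 657.5 to 2400.3 in regenerating, 416.5 to 724.7 in non-regenerating and 407.7 to 582.8 in traced samples.

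No member passed the threshold, a Benjamini-Hochberg adjusted limma p under 0.05 over the 18625 probe sets bright enough to be tested. These included 47 member probe sets of 37 genes, and the other 50 were too dim. Between regenerating and non-regenerating neurons of the same animals 0 of 47 passed (0.0161% of all tested probe sets did, 0.0107% as higher and 0.00537% as lower). Between non-regenerating and traced neurons 0 of 47 passed (0.0430% of all, each of them higher). Between regenerating and traced neurons 0 of 47 passed (0.215% of all, 0.156% as higher and 0.0591% as lower). The last 2 comparisons share the traced samples. In these bulk samples fewer cells of a type and less RNA per cell cannot be told apart.

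The members are set beside all tested probe sets at an unadjusted limma p under 0.05. Within animals 0 member probe sets were higher (4.26% of all) and 3 lower (6.38% of members, 2.81% of all) in regenerating neurons. Against traced neurons, 3 were higher (5.98% of all) and 11 lower (23.4% of members, 17.6% of all) in regenerating neurons, and 1 was higher (2.68% of all) and 5 lower (10.6% of members, 7.61% of all) in non-regenerating neurons. With arrays centred on their medians the balance against traced neurons turned over. Then 9 members were higher and 4 lower in regenerating neurons (20.4% and 7.12% of all). In non-regenerating neurons 3 were higher and 2 lower (7.71% and 2.97% of all). With quantile scaling it did not turn over for the members, with 3 higher and 9 lower in regenerating neurons (11% and 12.1% of all). In non-regenerating neurons 0 were then higher and 4 lower (5.26% and 4.72% of all). Without the arrays that stood apart the counts were 2 higher and 3 lower within animals (3.68% and 2.61% of all, without MM17). Against traced neurons they were then 2 higher and 7 lower for regenerating neurons (2.63% and 9.16% of all) and 1 higher and 3 lower for non-regenerating neurons (2.92% and 8.99% of all). By sign alone, 25 of the 47 were above 0 within animals (49.8% of all probe sets), 17 for regenerating against traced neurons (40.8% of all) and 15 for non-regenerating against traced neurons (38.8% of all). Within animals, 0 members were higher in all 7 animals (1.12% of all) and 0 lower in all 7 (0.966% of all). Against traced neurons, 1 member was higher without overlap in regenerating neurons (2.35% of all) and 6 lower (9.36% of all), and 0 were higher (1.10% of all) and 1 lower (1.47% of all) in non-regenerating neurons.

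**Figure D1:**
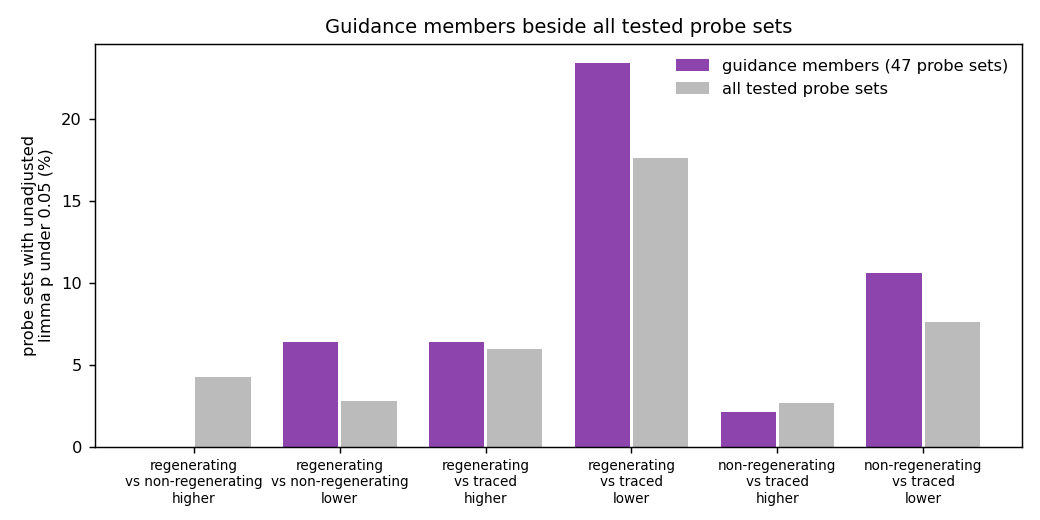
Bars give the percentage of probe sets with an unadjusted limma p under 0.05, in each direction of the 3 comparisons, for the 47 member probe sets (purple) and all 18625 tested probe sets (grey). Members and all probe sets were lower more often than higher against traced neurons, with 23.4% of members and 17.6% of all lower in regenerating neurons. With arrays centred on their medians both were higher more often. With quantile scaling the members were again lower more often.

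Within animals the median log2 difference of the members was 0.01, against 0.00 over all tested probe sets, with single members at -0.69 to 0.36. Against traced neurons the members' median was -0.25 for regenerating neurons (-0.12 over all) and -0.20 for non-regenerating neurons (-0.12 over all). Centring each array on its median moved the median of all probe sets to 0.26 and 0.24 and that of the members to 0.14 and 0.15. With quantile scaling the members' medians stayed below 0, at -0.08 and -0.06, against 0.014 and 0.008 over all. The sign of these medians thus depends on which scaling is used. Ligands had medians of -0.21 in regenerating and -0.14 in non-regenerating neurons against traced ones, and receptors had -0.25 and -0.30.

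**Figure D2:**
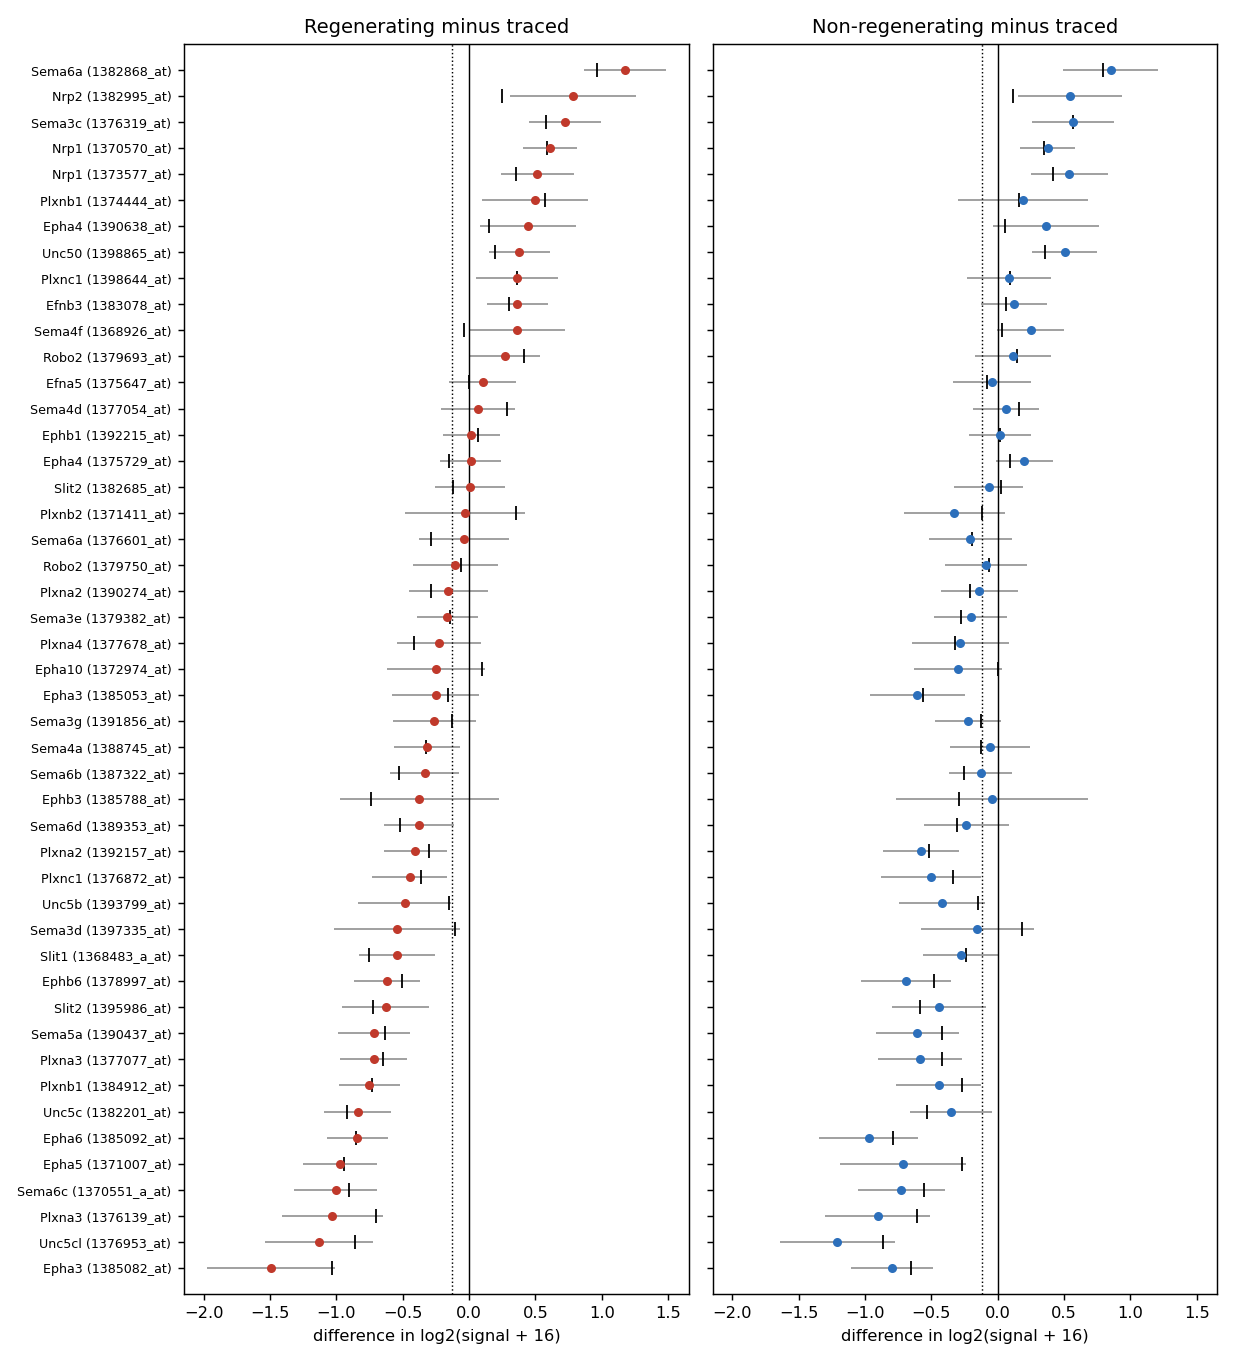
Points give the difference in log2(signal + 16) of each of the 47 member probe sets, regenerating minus traced neurons on the left (red) and non-regenerating minus traced on the right (blue), with grey bars for the limma SE, black ticks for MM animals alone, a solid line at 0 and a dotted line at the median of all tested probe sets. Sema6a stands highest (1.18 and 0.85) and Epha3 (-1.49) or Unc5cl (-1.21) lowest. Both panels use the same 3 traced arrays.

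Among the semaphorin ligands, Sema6a and Sema3c had their higher signals after axotomy, and Sema6c and Sema5a their lower ones, though none of these differences passed. Sema6a encodes a transmembrane semaphorin that binds class A plexins. At probe set 1382868_at its lowest, median and highest signals were 303, 524 and 801 in regenerating neurons, against 356, 192 and 180.3 in traced MM15, MM18 and MM19. One regenerating sample, MM16, lay below the highest traced sample, so the groups overlapped. The log2 difference was 1.18 (SE 0.31, n = 7 and 3, adjusted p = 0.0684), a fold of 2.26, and was 0.96 among MM animals alone and 1.47 without the arrays that stood apart. Non-regenerating neurons had 165, 452 and 679, which gave 0.85 against traced neurons (SE 0.36, adjusted p = 0.472) and 1.13 without both arrays. Within animals the regenerating samples were higher in 6 of 7 animals, by 0.32 (SE 0.16, adjusted p = 0.697), with 0.71 in the MOON and 0.17 in the MM animals.

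The other tested probe set of Sema6a, 1376601_at, gave another result. Its signals were 86.5 to 275 in regenerating and 69.4 to 249 in non-regenerating neurons, against 132 to 205 in traced neurons, with log2 differences of -0.04 and -0.21 against traced ones. The remaining 3 probe sets of the gene were too dim to be tested. Sema3c encodes a secreted semaphorin that acts through neuropilins and plexins. Its lowest, median and highest signals were 847, 1361 and 1919 in regenerating neurons, against 630.5, 918 and 918 in traced MM15, MM18 and MM19. The log2 difference was 0.72 (SE 0.27, adjusted p = 0.127), and 0.56 (SE 0.31, adjusted p = 0.487) for non-regenerating neurons, whose signals of 688 to 2009.8 overlapped those of the traced samples. Without the arrays that stood apart these were 0.54 and 0.52.

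Sema6c and Sema5a, both transmembrane semaphorins, lay lower in axotomised neurons. Sema6c had 35.1, 64.5 and 119.6 in regenerating neurons and 51.4, 66.5 and 150.0 in non-regenerating neurons, against 205, 101 and 125 in traced MM15, MM18 and MM19. The log2 differences were -1.004 (SE 0.31, adjusted p = 0.0851) and -0.73 (SE 0.33, adjusted p = 0.472), and 1 sample of each axotomised group, that of MM17, reached the traced range. Sema5a differed by -0.72 (SE 0.27) and -0.61 (SE 0.31), from signals of 110.0 to 259.6 and 126 to 329, against 243 to 351 in traced neurons. Both stayed below 0 with each array centred on its median. Without the arrays that stood apart Sema6c differed by -0.74 and -0.60, and Sema5a by -0.62 and -0.50.

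The remaining semaphorins gave no call either. Sema3d, a secreted semaphorin, had one of the smaller p-values within animals, with a log2 difference of -0.39 (SE 0.18, adjusted p = 0.697), lower in the regenerating neurons of 6 of 7 animals. Its signals were 12.4 to 48.6 on the MOON arrays and 56.9 to 217 on the MM arrays. Sema6b, a transmembrane member, was lower in 6 of 7 animals by -0.20 (SE 0.12), with signals of 329 to 752 in regenerating and 401 to 703 in non-regenerating neurons. Sema4d, known from oligodendrocytes as a ligand of plexin-B1, differed by 0.01 within animals (SE 0.16), and by 0.07 for regenerating and 0.06 for non-regenerating neurons against traced ones. Sema4f, a membrane semaphorin, had 1532 to 3058 on the MOON arrays and 802 to 1293 on the MM arrays, and its difference of 0.36 between regenerating and traced neurons was -0.04 among MM animals alone. Sema3e, Sema3g, Sema4a and Sema6d differed within animals by 0.04, -0.04, -0.26 and -0.14, and none passed.

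The ephrin and Slit ligands gave no call. Efnb3, an ephrin-B known as a midline and myelin barrier, had 237, 288.5 and 406 in regenerating neurons, against 175, 274 and 346.5 in non-regenerating neurons, and was higher in 6 of 7 animals by 0.24 (SE 0.14, adjusted p = 0.714). Efna5, an ephrin-A, differed by 0.15 (SE 0.17) within animals. Slit2, the secreted Robo ligand, had 2 tested probe sets that parted. At 1395986_at signals were 300.2 to 668 in regenerating neurons, against 1252, 535 and 463.5 in traced MM15, MM18 and MM19, and the log2 difference of -0.63 (SE 0.33) became -0.19 without the arrays that stood apart. At 1382685_at the difference was 0.01 (SE 0.26), and -0.27 without them. Slit1 was dim, with 14.5 to 57.3 in regenerating, 20 to 56.2 in non-regenerating and 37.2 to 57.6 in traced neurons, and differed by -0.54 and -0.28 against traced neurons.

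**Figure D3:**
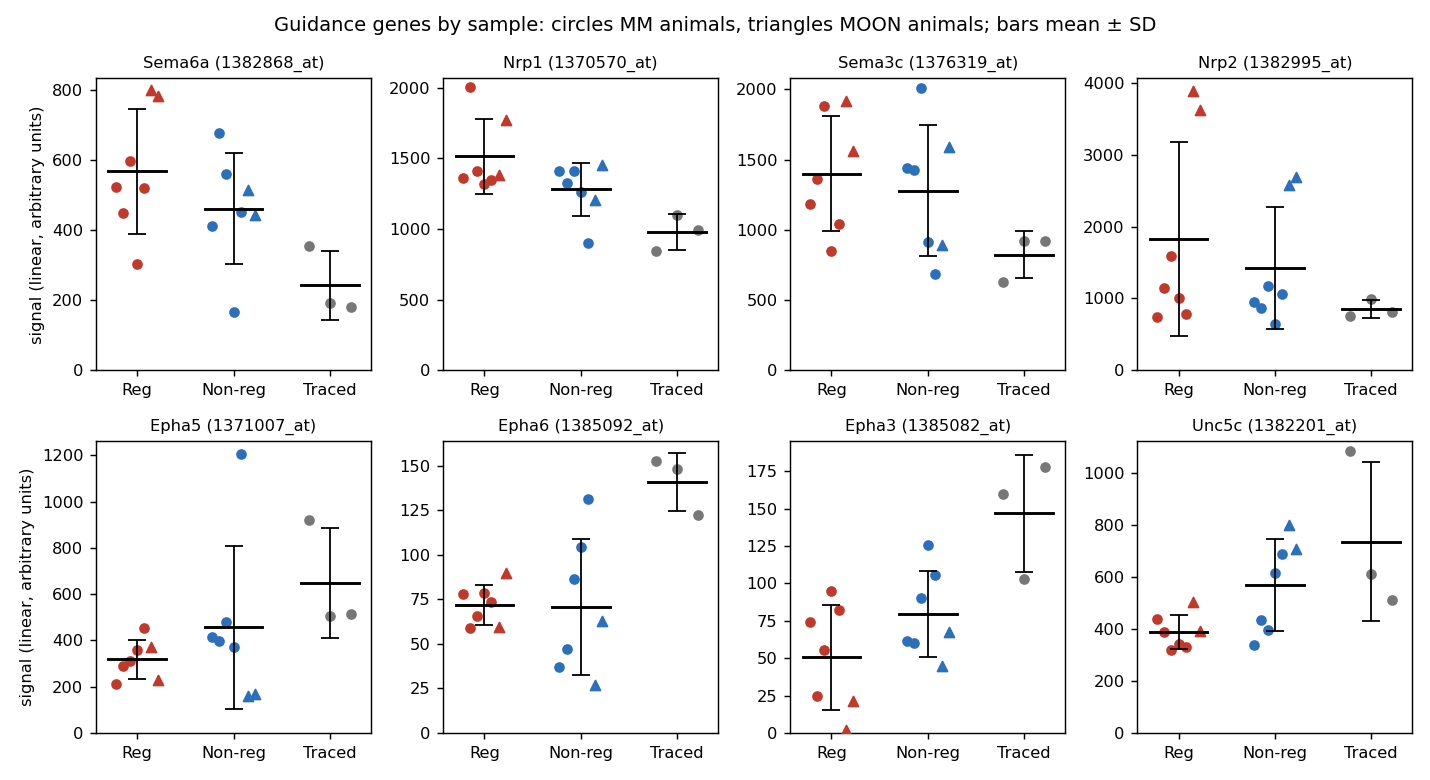
Each point is the deposited signal of 1 array on a linear scale from 0, for 8 member probe sets, in regenerating, non-regenerating and traced neurons, with circles for MM and triangles for MOON animals and bars for mean ± SD (n = 7, 7 and 3). Regenerating samples lie apart from traced ones at the probe sets drawn for Nrp1 (above) and Epha5, Epha6, Epha3 and Unc5c (below). Of all tested probe sets, 2.35% lay above and 9.36% below without overlap. At the other tested probe sets of Nrp1 and Epha3, not drawn here, the groups overlap. The highest values of Nrp2 are those of the MOON animals.

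The neuropilins were the receptor family with every tested probe set above 0 against traced neurons, under each scaling tried. Nrp1, which binds class 3 semaphorins and VEGF, had 1321, 1383 and 2007 in regenerating neurons at 1370570_at, against 842, 1099 and 995 in traced MM15, MM18 and MM19. The 7 regenerating samples lay above all traced ones, as did those of 2.35% of all tested probe sets. The log2 difference was 0.61 (SE 0.20, n = 7 and 3, adjusted p = 0.0978), 0.59 among MM animals alone and 0.51 without the arrays that stood apart. Non-regenerating neurons had 904, 1327.5 and 1453.5, a difference of 0.38 (SE 0.21, adjusted p = 0.489). The second probe set, 1373577_at, differed by 0.51 (SE 0.27) in regenerating and 0.54 (SE 0.29) in non-regenerating neurons against traced ones, with overlap in both. Within animals the probe sets gave 0.24 (SE 0.12, higher in 5 of 7 animals) and -0.03 (SE 0.16, higher in 3 of 7).

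Nrp2, the partner receptor of class 3 semaphorins, parted the MOON from the MM animals. Its signals were 2576 to 3892 on the 4 MOON arrays and 637 to 1595 on the 13 MM arrays. Its differences of 0.79 (SE 0.48) and 0.55 (SE 0.39) against traced neurons, for regenerating and non-regenerating samples, became 0.25 and 0.12 among MM animals alone. Of the members, 3 probe sets (Nrp2, Sema4f and 1 of Epha4) were higher on all MOON than on all MM arrays (4.46% of all tested), and 5 (Epha10, 1 of Plxna3, Plxnb2, Sema3d and Unc5b) lower (12.3% of all).

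Of the plexins, the signalling receptors of semaphorins, 8 of 10 tested probe sets (6 genes) lay below 0 against traced neurons in each of the comparisons. Most of all tested probe sets did too, with 40.8% above 0 for regenerating and 38.8% for non-regenerating neurons. The plexin medians were -0.31 in regenerating and -0.39 in non-regenerating neurons (-0.12 over all in both). With arrays centred on their medians these became 0.07 and -0.03 (0.26 and 0.24 over all). Plxna3, a partner of neuropilins, was lower at both probe sets. At 1376139_at it had 40.5, 94.3 and 210.4 in regenerating and 50.4, 108 and 296 in non-regenerating neurons, against 281, 202 and 196 in traced MM15, MM18 and MM19, with differences of -1.03 (SE 0.38, adjusted p = 0.123) and -0.91 (SE 0.39, adjusted p = 0.472). Among MM animals alone these were -0.70 and -0.61, and without the arrays that stood apart -0.87 and -0.82. The second, 1377077_at, differed by -0.72 (SE 0.25) and -0.58 (SE 0.32), and by -0.67 and -0.68 without those arrays.

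Plxnb1, the Sema4d receptor, had tested probe sets that disagreed in sign in every comparison. At 1384912_at it had 30 to 46.1 in regenerating neurons, against 50.1 to 90.5 in traced neurons, with no overlap (9.36% of all tested probe sets were lower without overlap) and a log2 difference of -0.75 (SE 0.23, adjusted p = 0.0822). That difference was -0.36 with arrays centred on their medians and also with quantile scaling. At 1374444_at the difference was 0.50 (SE 0.40), and -0.24 without the arrays that stood apart, one of which, traced MM15, had 35.4 against 215 and 234 in the other traced samples. Within animals the probe sets gave -0.31 (SE 0.18) and 0.31 (SE 0.21). Plxna2 at 1392157_at was the member whose non-regenerating samples all lay below the traced ones (1.47% of all tested probe sets did), with 30.1 to 86.6 against 90.7 to 95.4. Its regenerating samples, at 47.2 to 86, lay below them too, as did those of 9.36% of all tested probe sets. The non-regenerating difference of -0.58 (SE 0.29) became -0.22 with arrays centred on their medians. At the brighter probe set, 1390274_at, the groups overlapped, with 105.5 to 273.8 against 197.7 to 310.2, and differed by -0.14 (SE 0.29). Plxna4, Plxnb2 and Plxnc1 had within-animal differences of 0.06 to 0.30.

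The EphA receptors, kinases for ephrin-A ligands, held the lowest log2 difference from traced neurons among the guidance receptors. Epha6 had 59.1, 73.7 and 89.9 in regenerating neurons, against 152.5, 148 and 122.5 in traced MM15, MM18 and MM19, without overlap (9.36% of all tested probe sets were lower without overlap). The log2 difference was -0.84 (SE 0.23, n = 7 and 3, adjusted p = 0.0694), 1.79-fold lower, and -0.79 without the arrays that stood apart. It was -0.45 with arrays centred on their medians and -0.59 with quantile scaling. Non-regenerating neurons had 26.9, 62.7 and 131, and differed by -0.97 (SE 0.37, adjusted p = 0.472). Within animals the difference was 0.13 (SE 0.20).

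Epha5 had 212, 309.5 and 454 in regenerating neurons, against 921, 504 and 516 in traced MM15, MM18 and MM19, again without overlap, with a log2 difference of -0.97 (SE 0.28, adjusted p = 0.072), and -0.70 without the arrays that stood apart. In non-regenerating neurons it had 158, 397 and 1207, and the highest value was that of MM17, one of the arrays that stood apart. Within animals the MM and MOON rats went opposite ways. Epha5 was lower in the regenerating neurons of all 5 MM animals, by -0.68 on average, and higher in both MOON animals, by 0.78. The difference between the prefixes was 1.46 (SE 0.36) with an adjusted p of 0.912 over all tested probe sets. Of the members, 0 passed this test (0.00537% of all tested probe sets did), and 5 of 47 had an unadjusted p under 0.05 in it (5.11% of all).

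Epha3 was the member with the smallest p within animals and the largest difference between regenerating and traced neurons. At 1385082_at it had 1.8, 55.7 and 94.7 in regenerating neurons and 45, 67.3 and 125.5 in non-regenerating neurons, against 159.6, 103 and 178 in traced MM15, MM18 and MM19. It was lower in the regenerating neurons of 6 of 7 animals, with a log2 difference of -0.69 (SE 0.21, adjusted p = 0.678), -1.47 in the MOON and -0.38 in the MM animals. Against traced neurons the differences were -1.49 (SE 0.48, adjusted p = 0.0923) and -0.80 (SE 0.31, adjusted p = 0.472), and -1.42 and -0.80 without the arrays that stood apart. The signal of 1.8 in regenerating MOON265 lay below the offset of 16, so the size of these folds depends on that offset. The other tested probe set, 1385053_at, went the other way within animals, by 0.36 (SE 0.18), higher in 6 of 7. It differed from traced neurons by -0.25 and -0.61, with overlap in both. These became -0.046 and -0.52 without those arrays.

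Epha4, a receptor for both ephrin classes that is known to hold back corticospinal axons, had 1745, 2574 and 3314 in regenerating and 2129.5 to 3354 in non-regenerating neurons, against 2197, 2328 and 2470 in traced MM15, MM18 and MM19. At this probe set, 1375729_at, Epha4 differed by -0.19 (SE 0.14) within animals and by 0.01 and 0.20 from traced neurons. The other tested probe set, 1390638_at, differed by 0.08 (SE 0.15) within animals. From traced neurons it differed by 0.44 and 0.37, which became 0.053 and 0.14 without the arrays that stood apart. Of the EphB receptors, Ephb6, which lacks kinase activity, had 40.5 to 82.0 in regenerating and 26.6 to 112 in non-regenerating neurons, against 79.9 to 119 in traced neurons, with differences of -0.62 (SE 0.25) and -0.69 (SE 0.34, adjusted p = 0.473). With arrays centred on their medians these were -0.23 and -0.34. Ephb1 differed by 0.00 within animals (SE 0.13). Ephb3 was the clearest mark of the arrays that stood apart, with 1009.7 in non-regenerating MM17 and 1079.9 in traced MM15, against 71.0 to 418 on the other 15 arrays, and its difference between regenerating and traced neurons was -0.37 with and 0.66 without them.

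**Figure D4:**
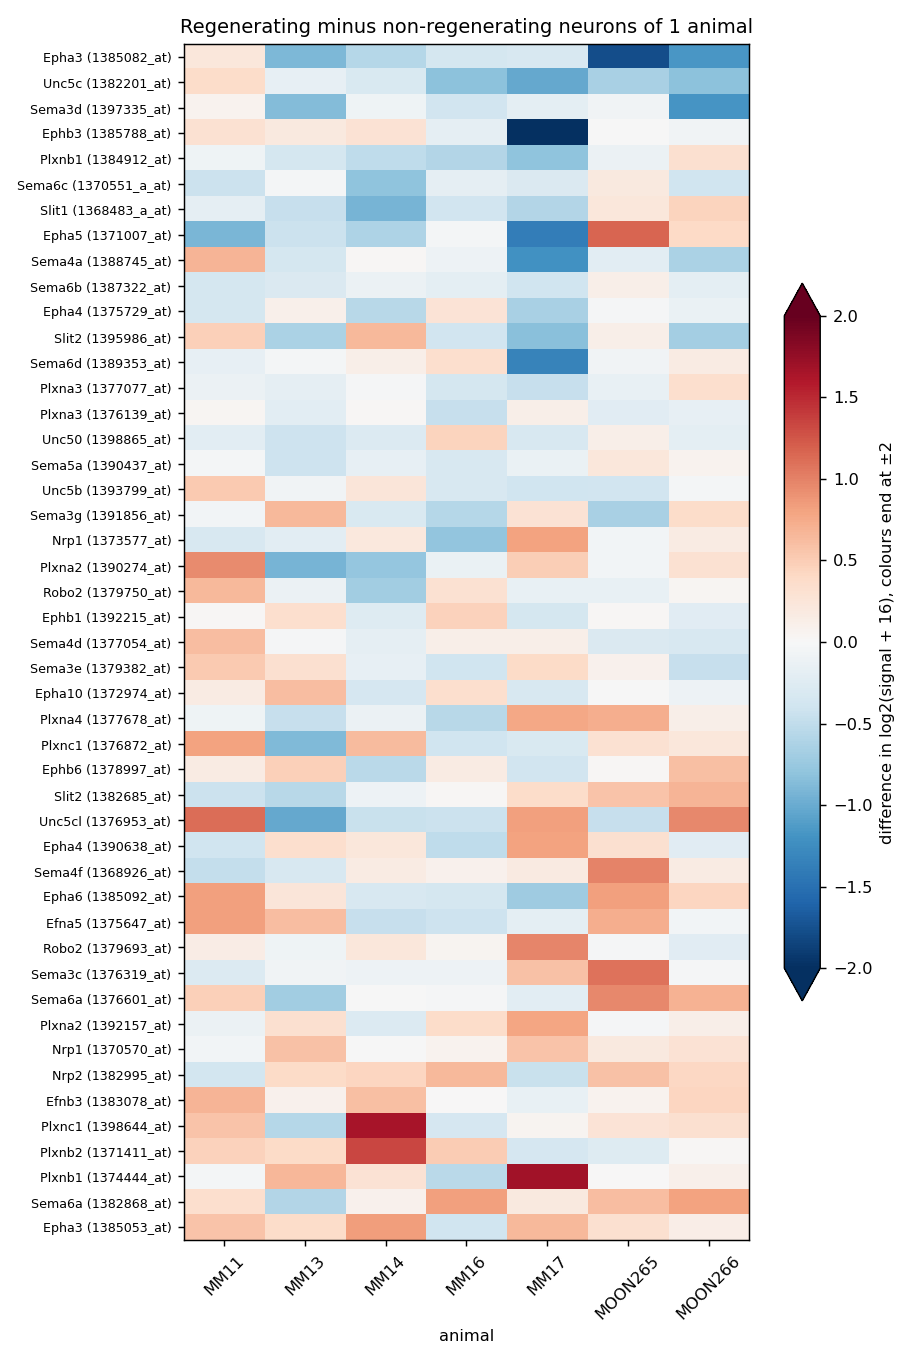
Each cell is the difference in log2(signal + 16) between the regenerating and the non-regenerating neurons of 1 animal, for 47 member probe sets ordered by their mean difference (lowest at the top, red higher and blue lower in regenerating neurons, colours ending at ±2). No row has 1 colour in all 7 animals, and Epha5 is blue in the MM and red in the MOON animals.

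Among the receptors of netrins and Slits, Unc5c had the smallest p within animals. Unc5c, through which netrins repel axons, had 320, 388 and 504 in regenerating neurons and 339, 615 and 802 in non-regenerating neurons, against 1086, 612 and 514 in traced MM15, MM18 and MM19. It was lower in the regenerating neurons of 6 of 7 animals, by a log2 difference of -0.49 (SE 0.16, adjusted p = 0.678), and the ranges of both groups overlapped. The regenerating samples lay below all traced ones, as did those of 9.36% of all tested probe sets. The difference was -0.84 (SE 0.25, adjusted p = 0.0791), and -0.53 without the arrays that stood apart. Non-regenerating neurons differed from traced ones by -0.35 (SE 0.31), by -0.094 without those arrays, and by 0.01 with arrays centred on their medians. Unc5b, a related receptor, differed by -0.06 within animals, and by -0.48 and -0.42 from traced neurons, which became -0.15 in both among MM animals alone. Robo2, the one Robo gene bright enough to be tested, differed by 0.15 (SE 0.14) within animals at 1379693_at and by -0.01 (SE 0.18) at 1379750_at. From traced neurons regenerating samples differed by 0.27 and -0.10 at these probe sets, and non-regenerating samples by 0.12 and -0.09.

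The probe sets matched by name only were Unc5cl, at -1.13 (SE 0.41) and -1.21 (SE 0.43) against traced neurons in regenerating and non-regenerating samples, and Unc50, at 0.38 (SE 0.23) and 0.50 (SE 0.24). Neither is a guidance receptor. Their signals were 17.2 to 127 and 10.6 to 112, against 102 to 192 in traced neurons, for Unc5cl, and 1070.2 to 2078 and 928 to 1983, against 976 to 1127.5, for Unc50.

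Some of the best known guidance genes were too dim for a test. All probe sets of 21 genes fell below the filter, among them Sema3a, the collapsing semaphorin, Ntn1, Dcc, Robo1, Slit3, Plxna1, Epha7 and Unc5a. Sema3a had 2.1 to 8 in regenerating and 1.6 to 4.9 in non-regenerating neurons, against 1.7 to 8.7 in traced neurons. Dcc had 1.7 to 21.6 and 1.2 to 30.2, against 7.3 to 33. The brightest probe set of Ntn1 had 11.4 to 43.1 and 19.1 to 55.4, against 39.6 to 61.1. Of the 50 dim probe sets, 22 averaged below 16 in every group, and the group means of all 50 were 1.77 to 63.1. With no filter, 0 of 97 probe sets passed in any of the 3 comparisons. Sema7a, Efnb2 and Ephb2 had no probe set with that single symbol.

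Of the 10 genes with more than 1 tested probe set, 3 had all of them on the same side of 0 within animals, 6 between non-regenerating and traced neurons and 5 between regenerating and traced neurons. Without further scaling Epha4, Nrp1, Plxna2 and Plxna3 were on the same side in both comparisons with traced neurons, as was Epha3. With arrays centred on their medians Plxna2 parted in both, and Epha3 parted for regenerating neurons (-1.10 and 0.14). With quantile scaling Epha3 (-1.33 and 0.13) and Epha4 (-0.05 and 0.29) parted for regenerating neurons. Nrp1 and Plxna3 kept to the same side under both scalings.

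In the lists of other guidance genes, no gene passed either. Of 37 tested signalling genes 0 passed in each comparison, with medians of 0.04 within animals and -0.04 and -0.06 for regenerating and non-regenerating neurons against traced ones. Limk1 and Limk2, the LIM kinases that regulate cofilin below these receptors, differed by -1.18 (SE 0.24, adjusted p = 0.0674) and -0.93 (SE 0.24, adjusted p = 0.0684) between regenerating and traced neurons. Both were lower without overlap, as were 9.36% of all tested probe sets. With arrays centred on their medians these differences were -0.79 and -0.54. Between non-regenerating and traced neurons Limk1 and Limk2 differed by -0.87 (SE 0.36) and -0.89 (SE 0.28). Ablim1, also of this list, was higher without overlap in regenerating than in traced neurons (2.35% of all tested probe sets were), by 0.53 (SE 0.19, adjusted p = 0.116). In non-regenerating neurons it differed by 0.48 (SE 0.26). Cdk5, a kinase of semaphorin signalling, differed by 0.49 (SE 0.19, adjusted p = 0.678) within animals and was higher in 6 of 7. Of 27 tested other cues, receptors and partners 0 passed. Ptprf was higher in the regenerating neurons of all 7 animals (1.12% of all tested probe sets were), by 0.28 (SE 0.12, adjusted p = 0.681). L1cam, the adhesion partner of Nrp1, differed by -1.07 (SE 0.30, adjusted p = 0.0713) between regenerating and traced neurons and Wnt5a, a repellent Wnt, by -0.98 (SE 0.34, adjusted p = 0.111). Rgma, the repulsive guidance molecule, differed by 1.01 (SE 0.35, adjusted p = 0.105), and by 0.56 without the arrays that stood apart.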

How the data were processed

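The intensity values were deposited by the authors as 1 signal per probe set and array on a linear scale, made with GCOS, per the submitters' processing notes, whose version and settings are not given in the sources used here. RNA was amplified over repeated rounds before labelling, per the labels' protocols, which can shift signals between probe sets of a gene. The number of arrays limits the precision, and 0 arrays were identical.

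Signals were used as log2(signal + 16). The 57 control probe sets were removed, and so were 12417 probe sets that were dim on average (under percentile 40). The rest were fitted with limma 3.58.1 (R 4.3.3, eBayes with trend), with Benjamini-Hochberg adjustment over all tested probe sets. Regenerating and non-regenerating samples were compared with the animal as a block. The pairing comes from the animal names, and deviations from group means correlated within animals at 0.345 to 0.709. The highest, 0.67 and 0.709, were those of MOON265 and MOON266, whose arrays differed from the MM arrays as a whole. No correlation between animals of the same prefix is given, so these values do not test the pairing. The fitting code was tested on simulated data. SE is limma's, and fold changes are on the log2(signal + 16) scale, which understates those of dim genes.

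Gene symbols came from the platform annotation, and 58 of 58 member genes matched RefSeq. The members and lists were chosen with earlier results of these data known. Named members were the 8 genes with the smallest p per comparison and a textbook set at the brightest probe set. Of each list of other guidance genes, up to 4 genes were named per comparison. Further members and probe sets are named beside them, chosen with their values known. Other settings tried were quantile and median scaling, offsets of 4 and 64, no or a stricter filter, array weights, no trend, no block, each name prefix, 1 fit over all samples and single samples left out. Python 3.11.15 and matplotlib 3.10.9 drew the figures.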

Additional observations from a re-analysis of the deposited data

Results flagged for a closer look

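In 50 groups of 7 values (25 named member probe sets in regenerating and in non-regenerating neurons, on the log2 scale), 4 groups had 1 sample farther from the others than Dixon's 95% limit for 7 samples allows, and chance gives such a sample in about 1 in 20 groups. Sema6a (1382868_at) was 165.4 in non-regenerating MM16, against 412.9 to 679.2 in the other non-regenerating samples. Nrp1 (1370570_at) was 903.7 in non-regenerating MM17, against 1204.3 to 1453.5 in the others. Plxna4 was 39.6 in regenerating MM11, against 93.7 to 145.2 in the other regenerating samples. Robo2 (1379693_at) was 410.6 in non-regenerating MM17, against 644.9 to 902.8 in the others. The array of MM17 named in 2 of these cases is one of those that stood apart from the rest.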

How the results depend on the processing

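The count of 0 members past the threshold within animals was the same in all 19 other settings, no replicate block among them (0, with 1 of 47 at an unadjusted p under 0.05 there), and the difference between name prefixes gave 0 in 3 other settings. Between non-regenerating and traced neurons 8 member probe sets passed with array weights, where 2440 of all did, and 0 in the other 20 settings. Between regenerating and traced neurons 12 passed with array weights (3131 of all), 2 with an offset of 64 (Sema6a and Epha6, where 859 of all 18625 did) and 0 to 6 with 1 sample left out. The 6, without regenerating MM17, were probe sets of Epha5, Epha6, Plxna3, Sema6a, Sema6c and Unc5cl, and 1504 of all probe sets passed there. The cause was not tested.

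Of 1489 values of 25 named member probe sets under other settings, 11 changed sign where the value exceeded its SE. In MOON animals alone Plxnb1 (1384912_at) differed within animals by 0.10, Epha5 by 0.78, Slit1 by 0.34 and Robo2 by -0.12. With arrays centred on their medians, Unc5c differed by 0.0084 between non-regenerating and traced neurons, and Sema6b by 0.056 between regenerating and traced neurons. In that comparison Plxnb1 (1374444_at) differed by -0.091 with array weights, by -0.24 to 0.90 with 1 sample left out and by -0.24 without the arrays that stood apart. Robo2 differed by -0.076 to 0.44 with 1 sample left out and by -0.076 without those arrays. The lowest of both ranges is the value without traced MM15. The setting without the 2 arrays that stood apart was chosen after seeing the data. No pairing links traced to axotomised animals. Dim signals limit what can be said of 21 genes.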
